A study of Mus musculus with 2 samples.

Results

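The expression of 10 genes of the pentose phosphate pathway and of antioxidant defence, known from other work as targets of the transcription factor NRF2, was compared between mouse embryonic fibroblasts given FGF2 and fibroblasts without it. They were Pgd, Tkt, Taldo1, Glrx, Srxn1, Gclm, Prdx1, Prdx6, Gstp1 and Sqstm1, and they were chosen by their ratios of FGF2 over control between these same 2 arrays, so those ratios are given as a description and support nothing. The 10 genes have 15 probes, out of 7409 genes and 8884 probes that could be named among the 24044 probes of the array. Both cultures were fibroblasts of the NMRI outbred mouse stock that had been grown in serum, stopped from dividing with the DNA crosslinker mitomycin C and plated again on a gelatine coat (55000 cells per square centimetre), as feeder cells for human embryonic stem cells are. The FGF2 culture then spent 24 h in serum replacement medium with 40 ng/ml FGF2, and the control culture 24 h in the same medium without it. Each group was 1 array, there are no replicates, and the sources used here do not say how many embryos a culture came from. The question of the comparison is what a day with FGF2 changes in the RNA of such feeder cells.

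The pentose phosphate pathway branches off glycolysis at glucose-6-phosphate. Its oxidative steps make NADPH, and its non-oxidative steps exchange carbon units between sugars and supply ribose for nucleotides. NADPH keeps glutathione and thioredoxin reduced, and these in turn feed the glutaredoxins, peroxiredoxins and transferases that clear peroxides, repair oxidised protein thiols and conjugate electrophiles. NRF2, held at low levels by the adaptor KEAP1, pairs with small MAF proteins on antioxidant response elements in the promoters of many of these genes. The related AP-1 factors, dimers of FOS and JUN proteins, bind a similar but shorter element and act downstream of growth factor receptors.

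On the FGF2 array 7424 probes (30.9%) were detected and on the control array 7599 (31.6%). Detected means a detection score of at least 0.99 in the deposited tables. The array signals are deposited intensities that include background, and the lowest detected ones were 184.9 with FGF2 and 194.6 in control. Ratios were taken as log2 of FGF2 over control after quantile normalization, and each gene was represented by its brightest probe. The ± after a ratio joins the bead standard deviations of both arrays on the log2 scale and leaves out all variation between cultures. With 1 array a group there is no test and no p-value, so a gene is counted when its ratio reaches 1.5-fold.

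All 10 genes were detected on both arrays by their brightest probe, and all had a higher normalized signal with FGF2 than in control. Their median log2 ratio was 0.76 (1.69-fold), between 0.32 for Prdx1 and 1.58 for Glrx, against a median of 0.03 over the 3005 named genes detected on at least 1 array. Of the 10, 7 were at least 1.5-fold higher, which was true of 159 of all 3005 genes (5.29%), and 2, Glrx and Srxn1, were at least 2-fold higher, which was true of 44 genes (1.46%). Srxn1 reached 2-fold on 1 of its 3 probes, and the mean of its probes was a log2 ratio of 0.88, under 2-fold. None was 1.5-fold lower, which was true of 204 genes (6.79%), or 2-fold lower, which was true of 78 (2.6%). Nothing is read from these counts, since the same contrast chose the genes. Among the 1612 named genes whose mean signal was at least that of Gclm, the dimmest of the 10, 7.57% were 1.5-fold higher and 9.99% lower, 2.3% were 2-fold higher and 4.4% lower, and the median log2 ratio was 0.05. The bead errors of the 10 ratios, between 0.05 and 0.09 on the log2 scale, were each smaller than the ratio they belong to.

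**Figure D1:**
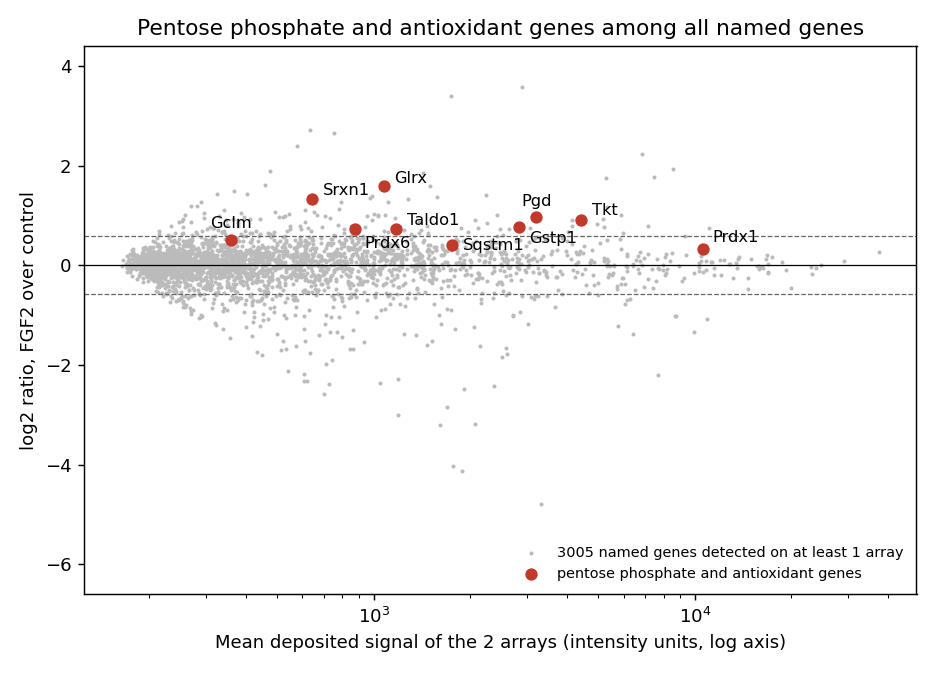
Log2 ratio of FGF2 over control (vertical axis) against the mean deposited signal of both arrays (horizontal log axis, intensity units) for 3005 named genes, with the 10 pentose phosphate and antioxidant genes in red and dashed lines at 1.5-fold. The 10 genes lie above 0 over the whole range of signals, with Glrx (1.58) and Srxn1 (1.34) highest and Prdx1 (0.32) lowest.

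Promoter windows of 300 bases, from 250 before to 50 after the annotated start of transcription, were given for 9 of the 10 genes in RefSeq sequences of build GRCm38.p6, and for Prdx6 none was used here. They were searched on both strands for the core of the antioxidant response element, TGACNNNGC, and for the AP-1 consensus, TGANTCA. Another motif, TGANTCAGC, in which the AP-1 letters are followed by GC as in the element bound by NRF2 with a small MAF protein, was chosen after the sequences had been seen. It contains the AP-1 consensus, and where its free base is C it is also a response element core. The AP-1 consensus occurred in 4 of 9 genes (Glrx, Srxn1, Prdx1 and Gstp1) and in 8.97% of all 27025 genes with a window. The longer motif occurred in 3 of 9 (Srxn1, Prdx1 and Gstp1) and in 1.37% of all genes. Nothing is read from these shares, since these same sequences led to its choice. The response element core occurred in 4 of 9 (Pgd, Srxn1, Gclm and Prdx1) and in 14.0% of all genes. The Pgd match lay 4 bases after the second of its annotated starts, and the Srxn1 core lay 29 bases after the start. Tkt, Taldo1 and Sqstm1 had no match in these windows. Not all these genes hold the same motif: Gclm has only the response element core and Glrx only the AP-1 consensus. The stretches around the matches that lie before the start are shown with the matches in capitals. They read, 5′ to 3′ on the strand of the gene:
Srxn1: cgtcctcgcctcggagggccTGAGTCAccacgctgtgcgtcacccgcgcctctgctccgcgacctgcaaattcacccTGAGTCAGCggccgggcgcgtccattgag
Prdx1: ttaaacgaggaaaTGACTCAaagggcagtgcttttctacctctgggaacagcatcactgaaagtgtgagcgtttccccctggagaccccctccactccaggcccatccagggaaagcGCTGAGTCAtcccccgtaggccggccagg
Glrx: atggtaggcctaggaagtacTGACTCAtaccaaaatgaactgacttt
Gclm: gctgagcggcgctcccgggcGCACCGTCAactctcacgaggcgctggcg
Gstp1: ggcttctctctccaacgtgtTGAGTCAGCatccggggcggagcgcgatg
Gstp2: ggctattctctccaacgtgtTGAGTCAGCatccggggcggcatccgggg
The Srxn1 stretch is chr2:152105402-152105507 on the plus strand, and its AP-1 matches begin 102 and 45 bases before the start. The Prdx1 stretch is chr4:116685349-116685494 on the plus strand. Its matches begin 237 and 133 bases before the start, and the nearer holds all 3 motifs. There the response element core and the longer motif lie on the opposite strand. The AP-1 letters, which begin 131 bases before the start, read on both strands. The Glrx stretch is chr13:75839767-75839813 on the plus strand, with its match 98 bases before the start, and the Gclm stretch is chr3:122245403-122245451 on the plus strand, with its core on the opposite strand 134 bases before the start. The Gstp1 stretch is chr19:4037958-4038006 and the Gstp2 stretch chr19:4042282-4042330, both on the minus strand. Gstp2, a neighbouring copy of Gstp1, is shown because 41 of the 49 bases are identical. A match describes letters in a window and does not show binding.

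**Figure D2:**
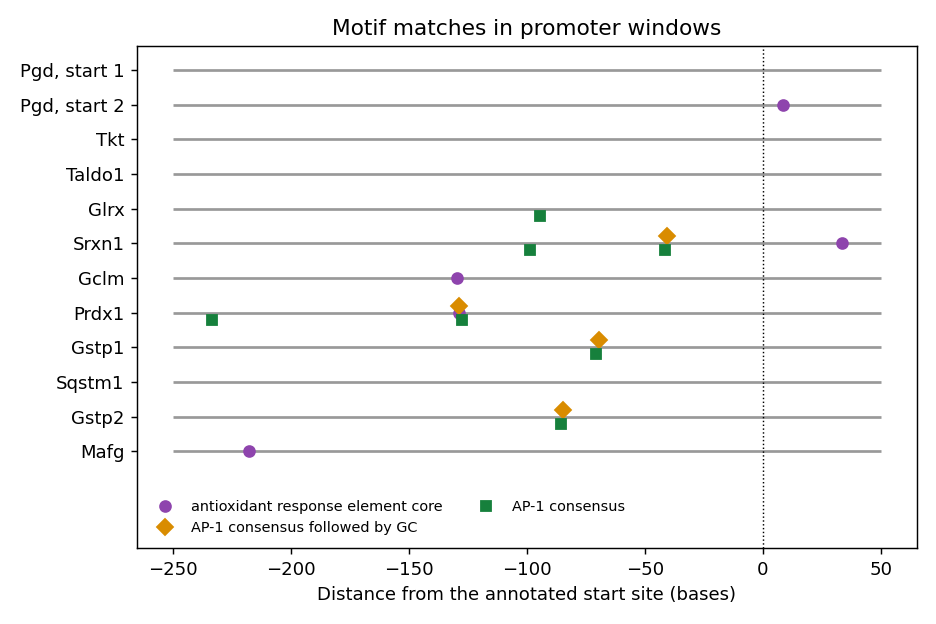
Matches of the 3 motifs (symbols) in promoter windows, drawn as lines by distance from the annotated start site in bases (horizontal axis), for the 9 genes with a window and for Gstp2 and Mafg; Glrx has a pair of windows that differ by 1 base, of which 1 is drawn. AP-1 letters followed by GC, a motif chosen after the sequences had been seen, lie before the start in Srxn1, Prdx1, Gstp1 and Gstp2. Tkt, Taldo1 and Sqstm1 hold no match.

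In the pentose phosphate pathway, the 3 genes described here had close ratios at different signals. Pgd encodes 6-phosphogluconate dehydrogenase, the second NADPH-producing enzyme of the oxidative branch. Its probe (scl0110208.1_282-S) had a deposited signal of 4074.9 with FGF2 and 2317.1 in control, a log2 ratio of 0.97 ± 0.06 (1.96-fold). Tkt encodes transketolase, which moves carbon pairs between sugars in the non-oxidative branch. Its brighter probe (scl021881.14_30-S) had a signal of 5545.3 with FGF2 and 3327.9 in control, a log2 ratio of 0.91 ± 0.07 (1.88-fold). Taldo1 encodes transaldolase, the other enzyme of that exchange. Its probe (scl021351.9_19-S) had a signal of 1364.3 with FGF2 and 984.8 in control, a log2 ratio of 0.73 ± 0.06 (1.66-fold). Ranked by ratio among all 3005 genes, Pgd was 52nd, Tkt 66th and Taldo1 101st from the highest. The second Tkt probe (scl0021881.2_123-S) was the only 1 of the 15 probes detected on neither array, with signals of 168.7 with FGF2 and 145.2 in control and detection scores of 0.938 and 0.752, so it gives no fold.

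Of 15 genes in a list of the pathway, 6 have a named probe and these 3 were the detected ones. G6pd2, a retrogene copy of glucose-6-phosphate dehydrogenase, and the transketolase-like genes Tktl1 and Tktl2 were not detected on either array. G6pdx, Pgls, Rpia and Rpe, which encode the enzymes of the oxidative branch before and beside Pgd and the isomerase and epimerase after it, have no named probe here and were not analysed. In a list drawn up for other NADPH sources, 2 genes were detected. Idh1, the cytosolic isocitrate dehydrogenase, had signals of 517.5 with FGF2 and 775.7 in control (−0.33 ± 0.08). Mthfd1l, a mitochondrial folate enzyme that does not itself make NADPH, had 361.3 and 353.5 (0.25 ± 0.07, and 0.03 with signals as deposited). Neither reached 1.5-fold, and the remaining named gene of that list, the transhydrogenase gene Nnt, was not detected.

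The highest ratios belonged to enzymes that repair oxidised protein thiols. Glrx encodes glutaredoxin 1, which uses glutathione to remove glutathione from protein cysteines. Its probe (scl093692.3_322-S) had a signal of 1536.8 with FGF2 and 613.2 in control, a log2 ratio of 1.58 ± 0.08 (3.0-fold), the 14th highest of 3005 genes. The difference of 923.6 intensity units compares with bead standard deviations of 58.7 and 24.5 on the FGF2 and control arrays. Srxn1 encodes sulfiredoxin, which restores some of the peroxiredoxins when their catalytic cysteine has been over-oxidised. Its brightest probe (scl0076650.1_42-S) had a signal of 875.0 with FGF2 and 413.6 in control, a log2 ratio of 1.34 ± 0.07 (2.52-fold), the 23rd highest. The other Srxn1 probes gave smaller ratios. Probe scl076650.2_4-S had 364.0 with FGF2 and 269.7 in control (0.64 ± 0.10, 1.56-fold). Probe scl076650.2_28-S had 278.3 with FGF2 and 192.1 in control, where its detection score of 0.987 was just short of the threshold. It was at least 1.58-fold higher after normalization, with a log2 ratio of 0.53 in signals as deposited. All 3 Srxn1 probes therefore had the higher signal with FGF2, and the size of the ratio differed by probe. In the authors' value table, from which a background had been subtracted, probe scl0076650.1_42-S was 3.41-fold and probe scl076650.2_4-S 2.20-fold higher.

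**Figure D3:**
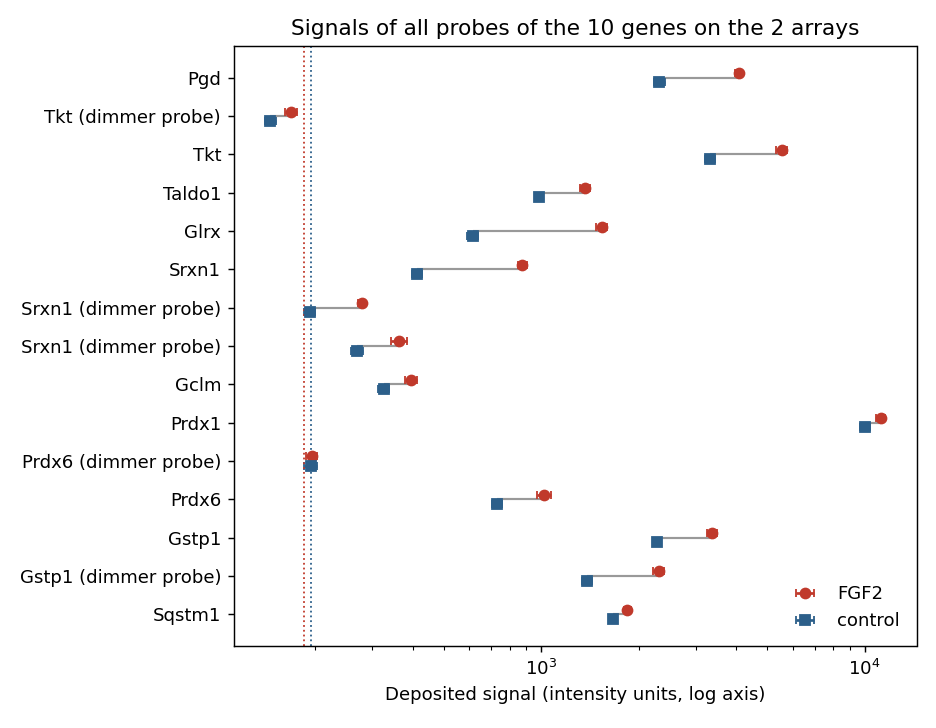
Deposited signals (horizontal log axis, intensity units) of the 15 probes of the 10 genes on the FGF2 array (red circles) and the control array (blue squares), with bars of ± 1 bead standard deviation and dotted lines at the lowest detected signal of each array in its colour. Every probe has the higher signal with FGF2, by 923.6 for Glrx and by 0.9 for the dimmer Prdx6 probe, which lies at the detection limit.

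The peroxiredoxins, which reduce hydrogen peroxide, had smaller ratios than the brightest probe of Srxn1, although the dimmer Srxn1 probes lay below Prdx6. Prdx1, a thioredoxin-dependent peroxiredoxin, was the brightest of the 10 genes and had the smallest ratio. Its probe (scl018477.6_2-S) had a signal of 11226.7 with FGF2 and 10032.1 in control, a log2 ratio of 0.32 ± 0.07 (1.25-fold), and 15.2% of all genes had a higher ratio. The Prdx1 ratio was 0.16 with signals as deposited. Prdx6, which takes its electrons from glutathione, had a signal of 1021.1 with FGF2 and 730.5 in control on its brighter probe (scl011758.1_35-S), a log2 ratio of 0.74 ± 0.09 (1.67-fold). Its dimmer probe (scl0011758.2_303-S) had 194.9 with FGF2 and 194.0 in control. With a detection score of 0.996 on the FGF2 array and 0.989 on the control array this probe barely counted. Its log2 ratio was 0.11 ± 0.09 after normalization and 0.007 with signals as deposited, so no direction is given for it. The values for Prdx6 above 1.5-fold therefore rest on 1 probe, and the mean of its probes was 0.43.

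Of 22 genes in the list of the thioredoxin, peroxiredoxin and glutaredoxin system, 11 have a named probe and 10 were detected. Of these, 3 were at least 1.5-fold higher (Glrx, Srxn1 and Prdx6) and none 1.5-fold lower, against 5.29% and 6.79% of all 3005 genes. All 3 are among the 10 genes chosen on this contrast. The 6 detected genes of the list other than the 4 described above lay between −0.50 and 0.49 around a median of 0.03, none past 1.5-fold. Nxn, which encodes the thioredoxin-related nucleoredoxin, had signals of 5090.2 with FGF2 and 7933.8 in control (−0.50 ± 0.05). Glrx5, a mitochondrial glutaredoxin of iron-sulfur cluster assembly, had 2265.8 and 1893.9 (0.49 ± 0.08), and Prdx5 had 5108.1 and 4450.1 (0.31 ± 0.10). The thioredoxin-like gene Txnl1 was at −0.24 ± 0.06, the mitochondrial glutaredoxin gene Glrx2 at 0.09 ± 0.08 and the monothiol glutaredoxin gene Glrx3 at −0.04 ± 0.09. Of the 4 detected glutaredoxin genes, Glrx had the highest ratio. With signals as deposited Nxn was past 1.5-fold lower (−0.64) and the Glrx2 ratio turned negative. Glrx5 was past 1.5-fold higher in the authors' value table (0.63), where the Glrx3 ratio turned positive. Txn1 and Txnrd1, for thioredoxin and its reductase, have no named probe here. Sod1, the cytosolic superoxide dismutase and the only named gene of its list, had signals of 1713.9 with FGF2 and 1543.3 in control (0.40 ± 0.08).

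In glutathione synthesis, Gclm encodes the modifier subunit of glutamate-cysteine ligase, the rate-limiting enzyme. Its probe (scl014630.7_323-S) had a signal of 395.6 with FGF2 and 326.2 in control, a log2 ratio of 0.50 ± 0.08 (1.41-fold), under 1.5-fold. It was the dimmest of the 10 genes, and in the authors' value table it was 1.76-fold higher. Gss, the next enzyme of the pathway, was detected on the FGF2 array only, with 228.0 against 175.4 in control. It was at least 1.28-fold higher after normalization, a log2 ratio of 0.36, against 0.23 with signals as deposited and the floor. The cystine transporter gene Slc7a11 was detected on neither array, with 156.5 with FGF2 and 164.5 in control. Gclc, the catalytic subunit, and Gsr, glutathione reductase, have no named probe here.

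Among glutathione S-transferase genes, Gstp1 encodes the pi-class enzyme, which conjugates electrophiles to glutathione. Its brighter probe (scl0014870.1_15-S) had a signal of 3376.0 with FGF2 and 2281.6 in control, a log2 ratio of 0.77 ± 0.06 (1.71-fold). Its other probe (scl014870.5_30-S) had 2309.2 with FGF2 and 1387.0 in control (0.96 ± 0.08, 1.94-fold), so both passed 1.5-fold. With signals as deposited the brighter probe was at 0.57, just under 1.5-fold. Gstp2, the neighbouring pi-class copy whose promoter letters are shown above, had 5197.4 with FGF2 and 3105.6 in control (0.91 ± 0.09, 1.88-fold). Near-identical copies can share signal on hybridised probes, so the values of Gstp1 and Gstp2 are not separate measurements with certainty. Of 3 mu-class genes with a named probe, Gstm1 and Gstm2 were detected and had lower signals with FGF2, and Gstm3 was detected on neither array, with 149.0 with FGF2 and 127.7 in control. Gstm2 had 920.3 with FGF2 and 3363.9 in control (−1.63 ± 0.06, 3.09-fold lower) on its brighter probe and 266.9 with FGF2 and 766.8 in control (−1.31 ± 0.07) on the other. Gstm1 had 277.1 with FGF2 and 631.3 in control (−0.97 ± 0.07, 1.97-fold lower) on 1 probe, while its other probe was detected on neither array. Mgst3, a microsomal transferase, was at 0.04 ± 0.10, and at −0.15 with signals as deposited. Of 24 genes in this list, 9 have a named probe and 5 were detected. Of the 5, 2 were at least 1.5-fold higher (Gstp1, chosen on this contrast, and Gstp2) and 2 lower (Gstm1 and Gstm2). Over all 3005 genes the shares were 5.29% and 6.79%.

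**Figure D4:**
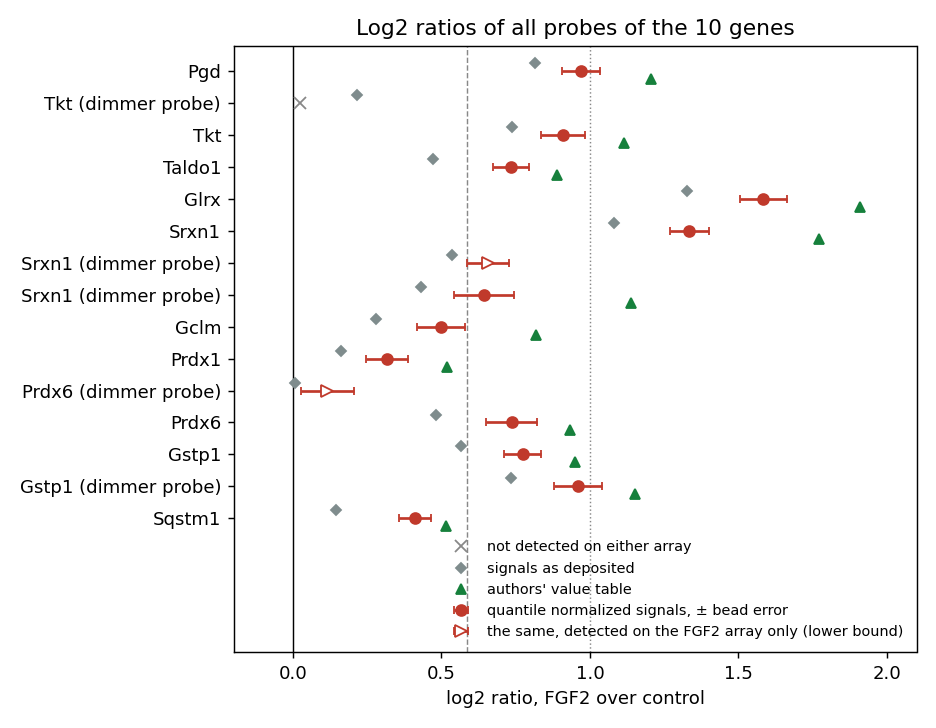
Log2 ratio of FGF2 over control (horizontal axis) for each of the 15 probes, from quantile normalized signals (red, bars ± combined bead error, open triangles for probes detected on the FGF2 array only, a cross for the Tkt probe detected on neither), from signals as deposited (grey) and from the authors' value table (green), with lines at 1.5-fold and 2-fold. For every probe detected on both arrays the order is the same, deposited signals lowest and the authors' table highest, as for Gclm at 0.28, 0.50 and 0.82.

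Sqstm1 encodes the selective autophagy receptor p62, which binds KEAP1. Its probe (scl018412.1_16-S) had a signal of 1844.9 with FGF2 and 1667.9 in control, a log2 ratio of 0.41 ± 0.05 (1.33-fold), with 10.8% of all genes higher. The Sqstm1 ratio was 0.15 with signals as deposited. Of 11 genes in a list of autophagy receptors and their ATG8 partners 5 have a named probe, and of the 3 detected none reached 1.5-fold. Map1lc3b, an ATG8 protein, had 1353.4 with FGF2 and 1732.0 in control (−0.08 ± 0.07). The receptor gene Calcoco1 was at the detection limit, with 187.8 with FGF2 and 174.7 in control, and its log2 ratio was −0.05 in signals as deposited with the floor, so no direction is given for it.

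Among other genes known as NRF2 targets, 1 of 6 detected passed 1.5-fold on the higher side, against 5.29% of all 3005 genes. Esd, for esterase D, which hydrolyses S-formylglutathione, had 6084.0 with FGF2 and 3865.0 in control (0.82 ± 0.10, 1.76-fold), and its dimmer probe was detected on neither array. The other 5 did not. Trim16, a ubiquitin ligase gene, was at the detection limit, with signals of 189.7 with FGF2 and 192.4 in control, and no direction is given for it. The others were the ferritin chains, with Ftl1 at 16542.7 with FGF2 and 16751.7 in control (0.12 ± 0.08) and Fth1 at 10593.2 and 11072.1 (0.08 ± 0.07), the aldose reductase gene Akr1b3 (0.22 ± 0.07) and Ugt1a6a (0.26 ± 0.08). With signals as deposited the ratios of both ferritin genes and of Ugt1a6a turned negative, and that of Akr1b3 was 0.009. The metallothionein gene Mt1, which responds to metals and oxidants, was at −0.07 ± 0.05, and its ratio was positive in the authors' value table. Nqo1 and Hmox1, widely used readouts of NRF2, have no named probe here and were not analysed.

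Of the NRF2 regulators, Nfe2l2 (NRF2) and Keap1 have no named probe. Mafg, a small MAF partner of NRF2, had 458.3 with FGF2 and 295.9 in control (0.85 ± 0.08, 1.80-fold). Its promoter window holds a response element core, as do those of 14.0% of all genes with a window. Outside the 10 genes, matches were listed by gene only for Gstp2 and Mafg. The related factor gene Nfe2l1 was at 0.28 ± 0.07, and at 0.05 with signals as deposited. Cul3 and Rbx1, of the ubiquitin ligase that acts with KEAP1, were at 0.18 ± 0.07 and −0.11 ± 0.08. The Cul3 ratio was negative in signals as deposited and the Rbx1 ratio positive in the authors' value table. Dpp3, which competes for KEAP1, was at −0.01 ± 0.08, and its ratio was positive after division by the median and in the authors' value table. The NRF2 competitors Bach1 and Bach2 were not detected, and neither were the NADPH oxidase genes Nox3 and Cybb and the glutathione peroxidase gene Gpx2. Over all these lists, 163 genes other than the 10 were considered, 56 have a named probe and 28 were detected. Of the 28, 3 (10.7%) were at least 1.5-fold higher (Gstp2, Esd and Mafg) and 2 (7.14%) lower (Gstm1 and Gstm2). Over all genes the shares were 5.29% and 6.79%. The median log2 ratio of the 28 was 0.09. Gstp2 may share probe signal with Gstp1, so it is not separate from the 10 genes with certainty.

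**Figure D5:**
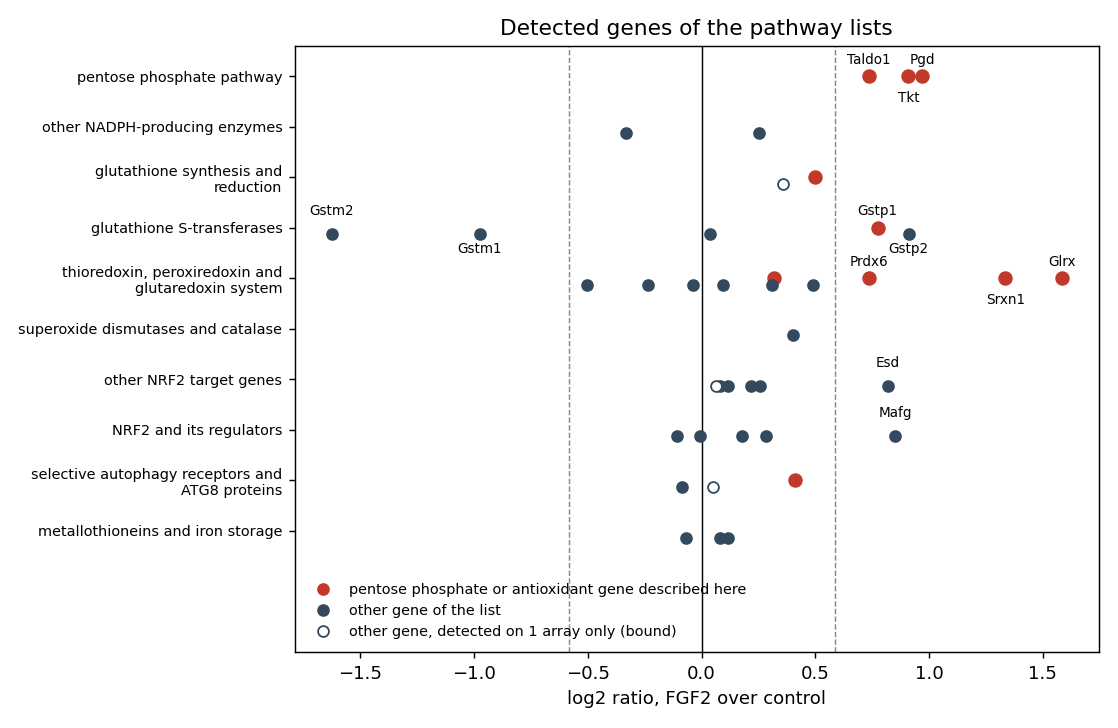
Log2 ratio of FGF2 over control (horizontal axis) for the brightest probe of each detected gene in the pathway lists (rows), with the 10 genes described here in red, other genes in dark blue, open circles for genes detected on 1 array only and dashed lines at 1.5-fold. Outside the 10, Gstp2, Esd and Mafg lie past 1.5-fold on the higher side and Gstm1 and Gstm2 on the lower side.

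Of 14 fibroblast markers, 7 have a named probe and 6 were detected. The 7 named genes summed to 15915.7 with FGF2 and 33537.8 in control. This sum and those below include background and genes that were not detected. Col1a1 was at −2.21, Col1a2 at −2.28, Col3a1 at −1.79 and Fbln1 at −1.21, while Dcn (−0.10) and S100a4 (0.14) were near 0. In bulk RNA, fewer cells of a type and less RNA per cell cannot be told apart. Most markers of other cell types were not detected. Macrophage and leukocyte markers summed to 1159.8 with FGF2 and 1287.4 in control over 7 named genes, with 2 detected, Cd53 (at least 1.82-fold higher) and Lyz2 (−0.58), and with Ptprc, Cd68 and Itgam detected on neither array. Epithelial markers summed to 691.0 with FGF2 and 642.9 in control over 4 genes, with Krt18 at least 1.52-fold higher, Cldn4 at −0.01 and Krt8 and Krt19 not detected. No endothelial marker (1 named) or pluripotent stem cell marker (3 named) was detected, and of 2 erythroid markers Hbb-b1 was, at the detection limit. The part of these differences in the ratios of the 10 genes was not tested.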

How the data were processed

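Total RNA of 2 samples (300 ng each, 6 h of in vitro transcription, Cy3) was measured on Illumina bead arrays, and signals were made with BeadStudio 1.0, per the submitters' processing notes. The deposited tables give an average intensity, a bead standard deviation in intensity units and a detection score, a fraction between 0 and 1, for 24044 probes. The sources used here name no normalization by that program. They also leave unsaid if the bead standard deviation is the spread of single beads or the error of the mean, and it was used as deposited. The authors' value table holds intensities that follow the deposited signals along straight lines: the control column is the signal less 135.4, and the FGF2 column has slope 1.278 and a background of 132.6. It is linear, not centred per gene, with medians of 276.8 for FGF2 and 262.1 for control, empty under a detection score of 0.99, and its scaling factor is unexplained.

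Probes were named by reading the number in identifiers with 1 or 2 leading zeros as an NCBI gene number and looking it up in the RefSeq table of GRCm38.p6. Of 9523 such identifiers 93.3% were listed, against 36.1% after adding 50 to each number. Signals were quantile normalized (limma 3.58.1, R 4.3.3), set to a floor of the lowest detected normalized signal (191.7 for FGF2, 188.4 for control) and log2 transformed. A gene counted if its brightest probe was detected on at least 1 array; for a gene detected on 1 array the ratio is a bound, taken against the floor or the dim probe's own signal, whichever is higher. Such bounds hold for the quantile normalized signals and change with the scaling. The scaling code was tested on simulated data, which checks the code and not the ratios of these 2 arrays. The number of arrays, 1 a group, limits the precision. The named genes are the 10 genes with all their probes and, of each pathway list, up to 6 detected genes with the largest ratios, beside 12 always named. The 10 genes, the lists and the settings were chosen with earlier results of these data known. Figures were drawn with matplotlib 3.10.9.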

Additional observations from a re-analysis of the deposited data

How the results depend on the processing

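All 10 genes had a positive log2 ratio under each of 10 alternatives, and every such ratio lay above the median of all genes. Of these 100 values, 71 moved by less than the gene's bead error, 29 by more, and none changed sign. Removing the floor or changing the detection filter could not move these values, because the brightest probes lay above the floor on both arrays. The mean of probes could not move a gene with 1 detected probe, so many of the 71 were fixed in advance. Signals as deposited and the authors' value table each moved every one of the 10 by more than its bead error. With signals as deposited the median of the 10 genes was 0.52, that of all genes −0.14, and 4 of the 10 passed 1.5-fold (without Taldo1, Prdx6 and Gstp1), with 81 genes higher and 348 lower in all (18.9% of them higher, against 43.8% in the values reported). With the authors' value table the 10 genes had a median of 0.94, that of all genes 0.13, and 8 passed 1.5-fold (Gclm too), with 359 higher and 257 lower (58.3% higher). Relative to all genes, the median of the 10 lay between 0.67 and 0.81 over all alternatives. Division by the median, loess, normexp, no floor, other detection filters and the mean of probes kept the counts at 1.5-fold, of the 10, of all genes and of the pathway lists, within 1.5 times and the median of the 10 within the median bead error of 0.07. Without a filter on detection 7409 genes entered, and the same counts of genes were 2.15% higher and 2.75% lower. Counts at 2-fold and those among brighter genes were not recomputed. The mean of probes left 6 of the 10 past 1.5-fold, without Prdx6, and put Srxn1 at 0.88, under 2-fold. Division by the median put Pgd at 1.05, and the authors' value table put Pgd at 1.21 and Tkt at 1.12, past 2-fold. Signals near 190 limit what the dim probes of Prdx6, Srxn1 and Tkt can show. No paired analysis was possible because each group has 1 array and the labels carry no replicate number.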
